A study of Homo sapiens with 6 samples.

Results

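The sterol and fatty acid synthesis genes described here are 35 genes chosen by symbol, and all 35 were among the 56303 genes of the count table. They comprise 23 genes of cholesterol synthesis and its control, 10 genes of fatty acid synthesis, desaturation, elongation and glycerolipid synthesis, and 2 genes induced by liver X receptors (LXR). All 35 also passed the filter on low counts, which left 21298 genes to test. RNA-seq had been performed in T24, a human bladder carcinoma cell line, to ask which transcripts change when FBXL6 is depleted. The siNC group consisted of 3 libraries of genotype label WT that received the control siRNA, and the siFBXL6 group of 3 libraries of genotype label FBXL6 knockdown that received siRNA against FBXL6. All cells were grown with fetal bovine serum and harvested 48 h after transfection, and all libraries were made from 2 μg of RNA and carry the same batch label. Which siRNA against FBXL6 a library received is not stated. The labels number the libraries of a group 1 to 3, and these are called replicates here, although in the siFBXL6 group the number could also stand for different siRNAs. Whether the replicates were separate cultures is not stated, so the p-values measure the spread between these libraries, which may be technical or, within siFBXL6, include differences between siRNAs. The siNC libraries held 58646515, 60967902 and 56814946 counts, and the siFBXL6 libraries held 60968158, 60898556 and 60754015. Levels are given in CPM, counts of a gene per 1000000 counts of its library, after TMM normalization, a scaling of the libraries to each other, and levels of different genes are compared only per kilobase of exon (RPKM).

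Cells make cholesterol from acetyl-CoA through mevalonate, squalene and a series of sterol rings, and they make fatty acids from the same acetyl-CoA through malonyl-CoA. The enzymes of both branches are induced by the SREBP transcription factors, which SCAP carries out of the endoplasmic reticulum when sterols are low and which INSIG proteins hold back when sterols are high. LXR receptors respond to oxidized sterols and induce genes of cholesterol export as well as SREBF1 and parts of the fatty acid branch.

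FBXL6, an F-box protein that selects substrates for a ubiquitin ligase, was measured as a check of the labels. It was at 6.19, 6.7 and 6.93 CPM in siNC replicates 1 to 3 and at 6.58, 5.7 and 5.81 CPM in siFBXL6 replicates 1 to 3. The groups overlapped, since siFBXL6 replicate 1 lay above siNC replicate 1. The log2 fold change was -0.13 (95% interval -0.31 to 0.05), which did not pass the test (adjusted p = 0.247 by edgeR, and p = 0.2 by an exact two-sided permutation test, whose smallest possible p with 3 against 3 libraries is 0.1). Of its exon bases, 37% are shared with other genes, 31.7% with SLC52A2 on the opposite strand, whose log2 fold change was 0.15 (edgeR adjusted p = 0.078). A lower FBXL6 mRNA level was therefore not established in these libraries. Outside the RNA-seq, the study reports FBXL6 knockdown in T24 with its siRNAs, by qRT-PCR and Western blot. Every direction below is that of the libraries labelled siFBXL6 against the libraries labelled siNC.

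The label of an epithelial bladder line was set against markers. The 4 epithelial keratins summed to 2978 ± 53.4 CPM in siNC and 2699 ± 14.2 CPM in siFBXL6 (SD, n = 3), with KRT19 the most abundant per kilobase (304 and 274 RPKM), and 3 of the 4 were called lower. Of 7 urothelial differentiation genes, 3 passed the filter and summed with the rest to 81.5 CPM in siNC and 74.2 CPM in siFBXL6. PPARG was the most abundant of these, GATA3 was called lower, and UPK1A was at 0 in all 6 libraries. Of the mesenchymal markers, VIM was called higher, from 15.6 to 25.4 CPM, and CDH2 lower, from 138 to 91.7 CPM. Per kilobase, VIM was at 3.02 RPKM and CDH2 at 27.8 RPKM in siNC. Among markers of other cell types, the 3 leukocyte genes summed to 7.22 CPM in siNC and 19.1 CPM in siFBXL6, nearly all of it CD68, while PTPRC stayed at or under 0.696 CPM and CD3E was at 0 in 5 of the libraries. The 3 endothelial genes summed to 1.72 and 2.58 CPM. The most abundant per kilobase was VWF in siNC (0.0985 RPKM) and PECAM1 in siFBXL6 (0.179 RPKM), and PECAM1 was called higher from 0.573 to 1.39 CPM. The 3 hepatocyte genes, led by ALB, summed to 9.46 and 8.88 CPM, and the 3 adipocyte genes, led by PLIN1, to 0.289 and 0.199 CPM with ADIPOQ at 0 in all 6. Of the 4 of these 6 genes that were tested, 0 were called by edgeR or DESeq2, and 0 had an unadjusted p under 0.05. The part of these marker shifts in the results below was not tested.

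The 10 members called lower were SCD, FADS1, FADS2, SREBF1 and FASN of the fatty acid branch, both LXR-induced genes, and TM7SF2, CYP51A1 and DHCR7 of the sterol branch, in which 17 of 23 genes were not called. Of the 35 members, 15 were called at an adjusted p under 0.05, or 42.9%, against 40.2% of all genes tested. Calls were thus about as frequent among the members as in the whole table. In the sterol branch 3 of 23 genes were called higher and 3 lower, beside 20.5% and 19.8% of all genes tested. These sterol counts were 3 higher and 5 lower with upper-quartile factors, and 2 higher and 6 lower with library size alone. In the fatty acid branch 2 of 10 were called higher and 5 lower, and both LXR-induced genes were called lower. The median log2 fold change was -0.05 in the sterol branch and -0.10 in the fatty acid branch, beside -0.01 over all genes tested. The median size of the change regardless of direction was 0.09 in the sterol branch, 0.26 in the fatty acid branch and 0.18 over all genes tested. The libraries of both groups did not overlap for 8 sterol genes, 9 fatty acid genes and both LXR-induced genes, and this held for 48.2% of all genes tested. Whether the branches differ from each other was not tested.

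**Figure D1:**
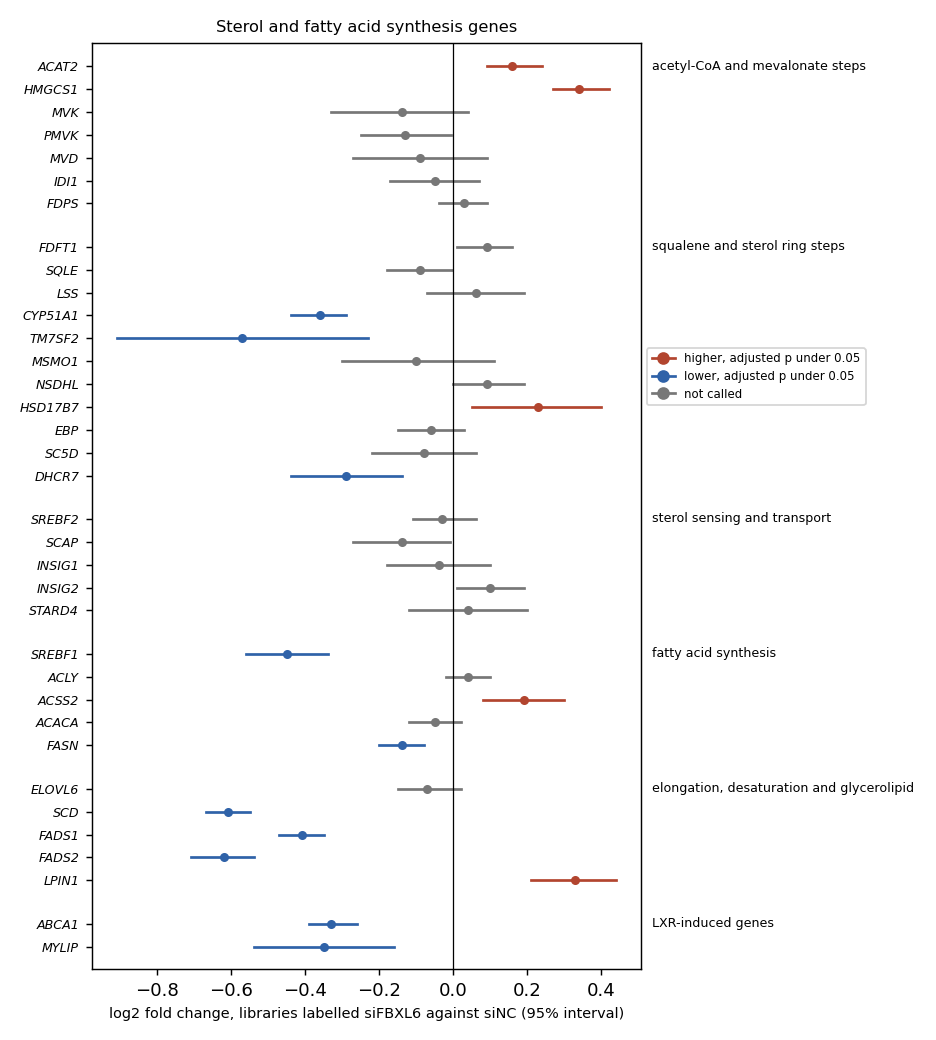
Log2 fold changes of the 35 members, libraries labelled siFBXL6 against siNC, grouped by role, with points for the estimate, lines for its 95% interval and colors for the call at an adjusted p under 0.05. SCD at -0.61 and FADS2 at -0.62 lie farthest left among the fatty acid genes, and all 5 genes of sterol sensing and transport lie between -0.14 and 0.10.

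Levels were also summed within each branch. The 23 sterol genes summed to 595, 587 and 607 CPM in siNC and to 604, 597 and 601 CPM in siFBXL6, ranges that overlap. The sums of its parts follow, and whether the parts differ from each other was not tested. The 7 genes of the acetyl-CoA and mevalonate steps went from 230.3 ± 6.85 to 247 ± 2.76 CPM and the 11 genes of the squalene and ring steps from 266 ± 3.98 to 252 ± 1.97 CPM (SD, n = 3), both without overlap, while the 5 genes of sensing and transport were at 101 ± 1.44 and 102 ± 1.48 CPM. The rise of the mevalonate sum lay in HMGCS1 (mean 42.6 to 54 CPM) and ACAT2 (50.1 to 56.1 CPM). Most of the fall of the ring sum lay in CYP51A1 (57.2 to 44.5 CPM). The counts of these genes are uncertain (below). Median log2 fold changes were -0.05 in the mevalonate steps, -0.08 in the squalene and ring steps and -0.03 in sensing and transport. The 10 fatty acid genes summed to 881, 886 and 881 CPM in siNC and to 760, 748 and 755 CPM in siFBXL6, a ratio of 0.855, and most of that difference lay in SCD, FADS1 and FADS2. Within this branch, the 5 genes of elongation, desaturation and glycerolipid synthesis went from 444 ± 1.56 to 329 ± 3.74 CPM (SD, n = 3), and the 5 genes of fatty acid synthesis from 439 ± 2.66 to 425 ± 2.48 CPM.

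The values carry a limit from the counting. In the table, 294 genes lie at least 95% inside the exons of a gene on the opposite strand that has a mean of at least 1000 counts. Their counts per base were at a median of 0.604 of the enclosing gene's, and only 4.08% of them were under 1% of it. Reads of a gene and of its antisense partner can therefore not be told apart here, although the library kit keeps the strand. Overlaps of called members are given where the gene is described, except for shares under 1% (TM7SF2 at 0.469%, LPIN1 at 0.97%, and FADS2 with FEN1 at 0.444% of exon bases) and the 10.1% that CYP51A1 shares with CYP51A1-AS1, which had a mean of 8.167 counts. Of the members that were not called, FDPS shares 18.6% of its exon bases with RUSC1-AS1 on the opposite strand (log2 fold change 0.02) and IDI1 17.9% with IDI2-AS1 (-0.10). LSS shares 7.88%, MVK 4.73%, FDFT1 4.17%, SREBF2 3.71%, ACLY 2.99% and STARD4 2.18%, so these values carry the same limit. Overlaps of the genes of other lists were not examined.

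Promoters were examined because SREBPs act there, and the stretches shown belong to called members that have a CCAAT or CACGTG match outside exons and groups without overlap, which leaves out HSD17B7. RefSeq promoter windows (GRCh38.p14, 250 bases before to 50 after a start) were found for 31 of the 35 members, 44 windows in all. The pentamer CCAAT, the core of the site of NF-Y, a factor known to act beside SREBPs, occurred on either strand for 16 of 20 sterol genes, 5 of 9 fatty acid genes and 1 of 2 LXR-induced genes. That made 71% of the members with a window, against 39.7% of all 27305 genes with a window. By window, the shares were 59.1% of 44 and 34.6% of 35116. The 27305 genes were not limited to the genes tested here. The shares of all genes for this and the other motifs are therefore not matched to the members for expression. CCAAT occurred for 8 of 13 called members and 14 of 18 others. CYP51A1, SREBF1, FADS1 and LPIN1 were called and had neither CCAAT nor CACGTG. The sterol regulatory element TCACNCCAC (N is any base) occurred for SREBF2 alone (3.23% of the members with a window, 1.39% of all genes), as TCACCCCAC at chr22:41832972-41832980. Only this string was searched, so sites that depart from it or lie outside the windows would be missed. The E-box CACGTG, which SREBPs can also bind, occurred for 16.1% of the members and 8.77% of all genes, namely INSIG1, LSS, SC5D, SCAP and ABCA1. The GC box GGGCGG occurred for 96.8% of the members and 48.3% of all genes. None of these motifs contains another of them. A match is a description of the letters and not of binding. The stretches below lie before a start and outside annotated exons, on GRCh38.p14 and 5′ to 3′ along the gene, with CCAAT (or ATTGG, the same site on the other strand) and CACGTG in capitals. They come from chr5:43313513-43313662 (HMGCS1, minus strand), chr11:71448436-71448561 (DHCR7, minus strand), chr20:34874739-34874941 (ACSS2, plus strand), chr10:100346983-100347123 (SCD, plus strand), chr9:104928238-104928405 (ABCA1, minus strand) and chr6:16128836-16129085 (MYLIP, plus strand).
HMGCS1: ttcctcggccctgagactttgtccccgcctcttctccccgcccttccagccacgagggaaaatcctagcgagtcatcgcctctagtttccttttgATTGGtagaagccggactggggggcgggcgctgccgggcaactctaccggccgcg
DHCR7: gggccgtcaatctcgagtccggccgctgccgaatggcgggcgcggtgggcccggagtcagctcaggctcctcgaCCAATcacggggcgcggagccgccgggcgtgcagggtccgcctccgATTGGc
ACSS2: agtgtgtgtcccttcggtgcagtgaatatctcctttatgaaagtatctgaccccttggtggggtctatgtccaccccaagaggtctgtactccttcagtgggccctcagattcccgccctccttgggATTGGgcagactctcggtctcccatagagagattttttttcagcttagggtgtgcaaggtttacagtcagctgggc
SCD: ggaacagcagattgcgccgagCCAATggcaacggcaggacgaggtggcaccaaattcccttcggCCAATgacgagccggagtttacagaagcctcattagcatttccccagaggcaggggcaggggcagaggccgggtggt
ABCA1: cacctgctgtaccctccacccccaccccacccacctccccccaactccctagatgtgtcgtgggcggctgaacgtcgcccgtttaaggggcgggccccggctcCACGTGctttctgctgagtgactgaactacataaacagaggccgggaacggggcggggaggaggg
MYLIP: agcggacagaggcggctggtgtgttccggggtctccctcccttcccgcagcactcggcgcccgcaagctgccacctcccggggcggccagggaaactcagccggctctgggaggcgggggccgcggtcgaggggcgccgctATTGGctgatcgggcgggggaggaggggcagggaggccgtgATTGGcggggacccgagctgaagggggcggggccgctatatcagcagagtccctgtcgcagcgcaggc

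The first steps of the sterol branch, from acetyl-CoA to farnesyl pyrophosphate, had 2 of 7 genes (28.6%) called higher. Over all genes tested this share was 20.5%. In the other direction 0 were called by edgeR or DESeq2, and 1 was lower at an unadjusted edgeR p under 0.05. HMGCS1, the synthase that makes HMG-CoA (chr5:43289395-43313512), was at 42.3, 43.9 and 41.7 CPM in siNC and at 55.3, 52.8 and 54 CPM in siFBXL6. All 3 siFBXL6 libraries lay above all siNC libraries, and HMGCS1 rose by a log2 fold change of 0.34 ± 0.0373 (SE), adjusted p = 2.79e-09. An antisense gene, CTD-2636A23.2, overlaps 15% of the HMGCS1 exon bases and rose by 0.41. With the partner's whole count subtracted from HMGCS1, a step chosen after the data were seen, 25.5, 25.2 and 23.8 CPM were left in siNC and 29.9, 30.2 and 31.3 CPM in siFBXL6, a log2 ratio of 0.29. ACAT2, the cytosolic thiolase that joins acetyl-CoA units, was at 51.5, 47.5 and 51.1 CPM in siNC and at 57.1, 56.7 and 54.4 CPM in siFBXL6. The groups did not overlap, and the log2 fold change was 0.16 ± 0.0378 (SE), adjusted p = 0.00063. Of its exon bases 52.3% are shared, 43% with SOD2 on the opposite strand, whose level went from 245 to 478 CPM (log2 fold change 0.96), and 9.23% with TCP1 (0.28). How much of the ACAT2 count comes from these neighbours cannot be told apart, so its higher value is uncertain. The 5 others were not called. MVK and PMVK, the kinases that phosphorylate mevalonate in turn, had log2 fold changes of -0.14 and -0.13. The value of PMVK (adjusted p = 0.0924) passed with library size alone (0.0473) and without siNC replicate 2 (0.0303), and the alternatives ranged from 0.0303 to 0.272. MVD, which makes isopentenyl pyrophosphate, was at -0.09 and its isomerase IDI1 at -0.05. FDPS, which makes farnesyl pyrophosphate, was at 95.2, 89.4 and 95.8 CPM in siNC and at 94.9, 93.2 and 97.3 CPM in siFBXL6. Its groups overlapped and the interval of the log2 fold change ran from -0.04 to 0.09.

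In the steps from farnesyl pyrophosphate through squalene to the sterol rings, 3 of 11 genes (27.3%) were called lower and 1 (9.09%) higher. Over all genes tested, 19.8% were called lower and 20.5% higher. CYP51A1, the lanosterol demethylase (chr7:92112151-92142952), was at 55.9, 58.2 and 57.5 CPM in siNC and at 46.3, 44.1 and 43.1 CPM in siFBXL6. Every siFBXL6 library lay below every siNC library, and CYP51A1 fell by 0.36 on the log2 scale (adjusted p = 8.74e-10). It shares 78.8% of its exon bases with LRRD1 on the same strand, which was at 56.3 CPM in siNC and 43.7 CPM in siFBXL6. The mean count of LRRD1 over the libraries, 2986, was nearly that of CYP51A1, 3037, so the reads of these genes cannot be told apart. DHCR7, the reductase that finishes cholesterol from its last precursor and shares no exon (chr11:71428193-71452868), was at 9.49, 9.1 and 8.88 CPM in siNC and at 7.33, 7.63 and 7.53 CPM in siFBXL6. These groups did not overlap either, and the log2 fold change was -0.29 ± 0.0741 (SE), adjusted p = 0.00191. TM7SF2, a sterol reductase, had only 68 to 132 counts a library, or 2.1, 2.14 and 1.79 CPM in siNC and 1.42, 1.13 and 1.53 CPM in siFBXL6. It fell by 0.57 on the log2 scale (95% interval -0.91 to -0.23, adjusted p = 0.00611), and without siFBXL6 replicate 2 the change was -0.45 with an adjusted p of 0.0535, where the alternatives ranged from 0.00335 to 0.0535. HSD17B7, a ketoreductase of the sterol ring, was at 6.58, 6.75 and 6.55 CPM in siNC and at 6.75, 8.23 and 8.31 CPM in siFBXL6. Replicate 1 of siFBXL6 lay within the siNC range and the other two above it. The log2 fold change of 0.23 passed in edgeR (adjusted p = 0.0316) and not in DESeq2 (0.107), with library size alone (0.0556) or without any of 5 of the 6 libraries: 0.0548, 0.056 and 0.0698 without siNC replicate 1, 2 or 3, and 0.15 and 0.166 without siFBXL6 replicate 2 or 3 (range over the alternatives 0.00461 to 0.166). Named pseudogenes of HSD17B7 held at most 17.9% of its count in a library.

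The 7 others in these steps were not called. FDFT1, the squalene synthase, was at 57.3, 55.2 and 59.6 CPM in siNC and at 60.4, 61 and 61 CPM in siFBXL6. Its groups did not overlap, but the log2 fold change of 0.09 missed the threshold (adjusted p = 0.0543). In edgeR it passed with RLE factors (0.0492), with at least 10 counts in every library (0.0457) and without siNC replicate 3 (0.0161). It did not pass in DESeq2 (adjusted p = 0.113), and the alternatives ranged from 0.0161 to 0.266. SQLE, the squalene epoxidase, was at 44.4, 44.5 and 47 CPM in siNC and at 41, 45.8 and 40.8 CPM in siFBXL6. Here siFBXL6 replicate 2 stood inside the siNC range, and the log2 fold change of -0.09 (adjusted p = 0.0938) became -0.15 without it (adjusted p = 0.0125). It also passed with upper-quartile factors (0.0405) and with library size alone (0.0373), and the alternatives ranged from 0.0125 to 0.382. LSS, which closes the first ring system, had a log2 fold change of 0.06, the methyl oxidase MSMO1 -0.10, the decarboxylating dehydrogenase NSDHL 0.09, the isomerase EBP -0.06 and the desaturase SC5D -0.08.

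Of the 5 genes of sterol sensing and transport, 0 were called by edgeR and 0 by DESeq2, and at an unadjusted p under 0.05 edgeR had 1 higher and 1 lower. SREBF2, which encodes the SREBP that chiefly drives cholesterol synthesis, was at 29.5, 29.7 and 29.1 CPM in siNC and at 28.5, 28.9 and 29.4 CPM in siFBXL6. The groups overlapped, and the interval of its log2 fold change ran from -0.11 to 0.06. INSIG1, itself an SREBP target and a sensitive readout of the pathway, was at 9.9, 10.2 and 9.51 CPM in siNC and at 9.71, 9.59 and 9.44 CPM in siFBXL6. These libraries overlapped too, with a log2 fold change of -0.04 (95% interval -0.18 to 0.10). INSIG2 had a log2 fold change of 0.10 (adjusted p = 0.0612), which was 0.16 without siNC replicate 3 (adjusted p = 0.00425, range 0.00425 to 0.287). SCAP had -0.14 (adjusted p = 0.0875), which passed with upper-quartile factors and with library size alone (0.0481 in both, range 0.0481 to 0.298). STARD4, which carries cholesterol between membranes, had a log2 fold change of 0.04.

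**Figure D2:**
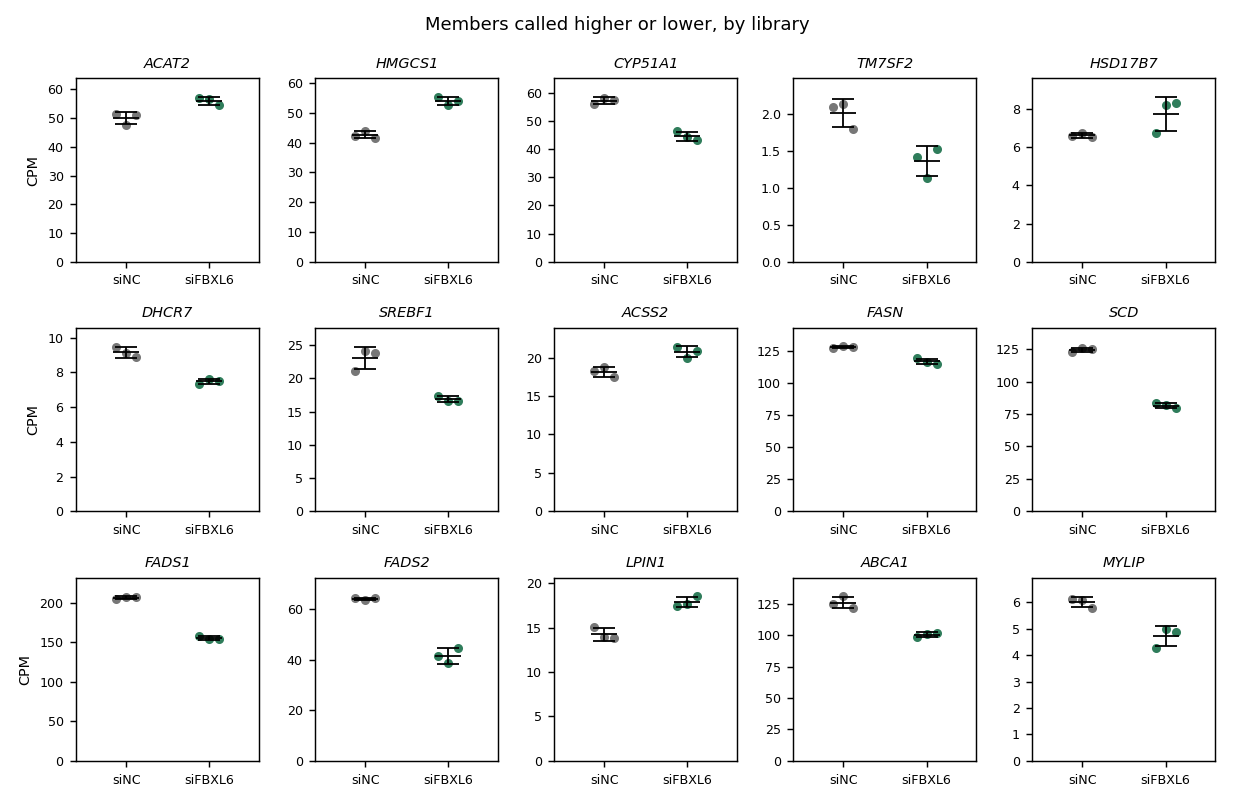
Levels in CPM of the 15 members called higher or lower, with a point for each of the 3 libraries of a group and a bar for the mean and its SD; each axis starts at 0. The groups overlap for HSD17B7 only, where siFBXL6 replicate 1 is at 6.75 CPM.

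In the fatty acid branch, the 5 genes from transcription factor to palmitate had 2 (40%) called lower and 1 (20%) higher. Over all genes tested, 19.8% were called lower and 20.5% higher. SREBF1, which encodes the SREBP that chiefly drives fatty acid synthesis (chr17:17810399-17837002), was at 21.1, 24.1 and 23.8 CPM in siNC and at 17.4, 16.6 and 16.6 CPM in siFBXL6. All siFBXL6 libraries lay below all siNC libraries, and SREBF1 fell by 0.45 on the log2 scale (SE 0.0554, adjusted p = 3.52e-08). It shares 6.92% of its exon bases with RAI1 on the opposite strand, whose log2 fold change was -0.19. FASN, the synthase that builds palmitate, was at 127, 129 and 128 CPM in siNC and at 119, 116 and 115 CPM in siFBXL6. The groups did not overlap, and the change was small at -0.14 ± 0.0303 (SE) on the log2 scale, adjusted p = 0.000386. ACSS2, which makes acetyl-CoA from acetate, was at 18.2, 18.8 and 17.5 CPM in siNC and at 21.4, 20 and 20.9 CPM in siFBXL6. It was higher in every siFBXL6 library, with a log2 fold change of 0.19 ± 0.0528 (SE), adjusted p = 0.00385. ACLY, which makes acetyl-CoA from citrate, was at 174 ± 2.28 CPM in siNC and 179 ± 1.47 CPM in siFBXL6 (SD, n = 3), and ACACA, the carboxylase that makes malonyl-CoA, at 94.8 ± 4.11 and 91.7 ± 2.18 CPM. Neither was called, with log2 fold changes of 0.04 and -0.05.

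Among the members, the log2 fold change was lowest for FADS2 and SCD, desaturases that set double bonds into finished acyl chains. SCD, the stearoyl-CoA desaturase that makes oleate (chr10:100347124-100364834), was at 123, 126 and 125 CPM in siNC and at 83.2, 81.6 and 79.9 CPM in siFBXL6. The gap between the groups was many times their spread, and SCD fell by 0.61 on the log2 scale (95% interval -0.67 to -0.55, adjusted p = 1.83e-17). Of all genes tested, 4.46% had a lower log2 fold change than SCD. FADS2, which takes the first desaturation step of polyunsaturated fatty acids (chr11:61792980-61867354), was at 64.2, 63.7 and 64.5 CPM in siNC and at 41.6, 38.5 and 44.8 CPM in siFBXL6. Its siFBXL6 libraries spread more than the siNC libraries and still did not overlap them, and FADS2 fell by 0.62 on the log2 scale (95% interval -0.71 to -0.54, adjusted p = 1.84e-14). FADS1 (chr11:61799625-61829318) takes a later desaturation step and lies within the span given for FADS2. FADS1 was at 205, 207 and 208 CPM in siNC and at 158, 154 and 154 CPM in siFBXL6. No library of the groups overlapped, and FADS1 fell by 0.41 on the log2 scale (SE 0.0298, adjusted p = 1.85e-13). FADS1 and FADS2 share 490 exon bases on opposite strands, 4.79% and 4.44% of their exons, so part of their counts may be common to both, and how large a part was not measured. LPIN1, a phosphatidate phosphatase of glycerolipid synthesis, moved the other way, with 15.1, 13.9 and 13.8 CPM in siNC and 17.4, 17.7 and 18.5 CPM in siFBXL6. All 3 siFBXL6 libraries were above siNC, and LPIN1 rose by 0.33 ± 0.0576 (SE) on the log2 scale, adjusted p = 1.96e-05. ELOVL6, the elongase that lengthens palmitate, had a log2 fold change of -0.07 and was not called.

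Both LXR-induced genes were lower in the libraries labelled siFBXL6. ABCA1, which exports cholesterol from the cell (chr9:104781002-104928237), was at 125, 131 and 122 CPM in siNC and at 98.5, 101 and 102 CPM in siFBXL6. Its groups did not overlap, and ABCA1 fell by 0.33 on the log2 scale (SE 0.0321, adjusted p = 2.38e-10). MYLIP, a ubiquitin ligase that removes lipoprotein receptors, was at 6.14, 6.1 and 5.78 CPM in siNC and at 4.27, 4.97 and 4.88 CPM in siFBXL6. It fell by 0.35 on the log2 scale (SE 0.0936, adjusted p = 0.00256), again without overlap between the groups.

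Compared per kilobase of exon in siNC, ACLY stood highest among the members at 33.4 RPKM, followed by FDPS at 25.1, SCD at 23.2 and FADS1 at 20.2 RPKM. In siFBXL6, SCD and FADS1 were both at 15.2 RPKM. The sterol genes ranged from TM7SF2 at 0.59 RPKM and MVK at 0.935 RPKM to FDPS. SREBF2 at 3.89 RPKM lay above SREBF1 at 2.87 RPKM in siNC, and in siFBXL6 they were at 3.82 and 2.1 RPKM. INSIG2 at 9.85 RPKM lay above INSIG1 at 2.7 RPKM. These levels rest on the exon length in the table, which counts every annotated exon of a gene.

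**Figure D3:**
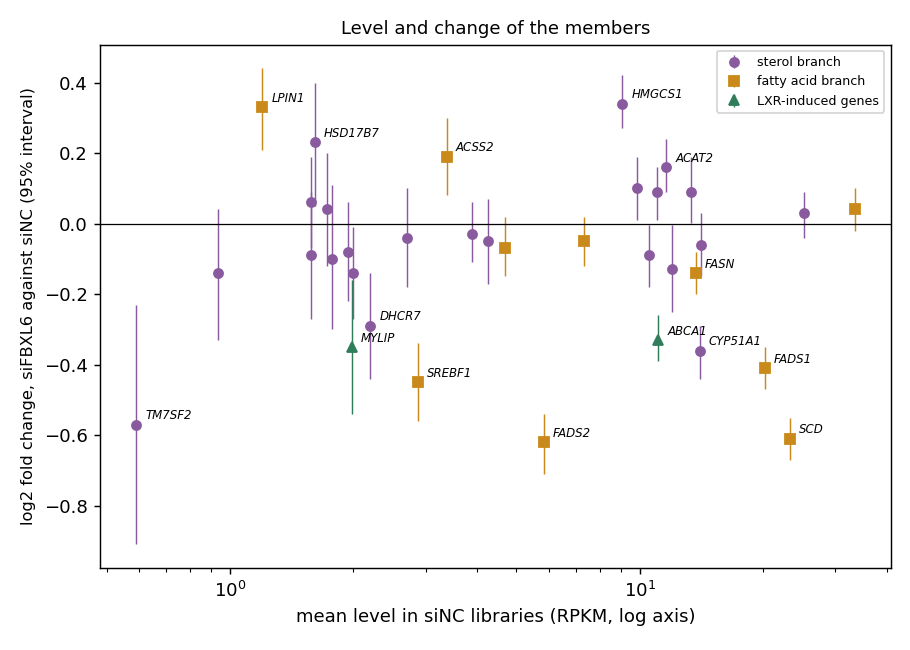
Mean level of each member in the siNC libraries in RPKM on a log axis against its log2 fold change with the 95% interval, by branch, with the called members named. SCD and FADS1 are among the members with the highest level per length and lie at -0.61 and -0.41, while TM7SF2, at 0.59 RPKM, has the widest interval.

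Other genes of the same pathways were described from lists of 53 reported genes, of which 52 passed the filter. Of these, 16 (30.8%) were called higher and 9 (17.3%) lower, beside 20.5% and 19.8% of all genes tested, and 12 and 8 of these calls held in all 13 alternative fits (another test, other scalings or filters, a replicate block, or a library left out). At a change of at least 1.2-fold, which is not among those fits, 9 were higher and 4 lower. Of all 21298 genes tested, 4661 were called at that threshold in either direction, and the 1.2-fold counts below stand beside the same number. How many of all genes tested kept their call in all 13 fits was not counted. The median log2 fold change of the 52 genes was 0.01, beside -0.01 over all genes tested.

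Among 9 genes of SREBP processing and turnover, 4 (44.4%) were called higher and 2 (22.2%) lower. The shares over all genes tested were 20.5% and 19.8%. On this list 2 of the higher and both of the lower calls held in all 13 fits, while at 1.2-fold 2 higher and 0 lower were left. MBTPS1, the protease that makes the initial cut in SREBPs, was at 46.6, 45.8 and 45.4 CPM in siNC and at 63.5, 65.2 and 62.2 CPM in siFBXL6, a log2 fold change of 0.47 ± 0.0355 (SE), adjusted p = 5.26e-13. MBTPS2, the protease that makes the following cut, was at 14.8, 15.2 and 15 CPM in siNC and at 20.6, 21 and 20.2 CPM in siFBXL6, a log2 fold change of 0.45 ± 0.0533 (SE). Both proteases were thus higher in every siFBXL6 library. ERLIN2, which belongs to a complex that restrains SREBPs, fell by 0.19 and FBXW7, an F-box protein that marks nuclear SREBPs for degradation, by 0.16 on the log2 scale. ERLIN1, on the same list, was called higher by 0.14 on the log2 scale (edgeR adjusted p = 0.00756, range over the alternatives 0.000504 to 0.0907).

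Of 9 other genes of sterol and isoprenoid synthesis reported here, 3 (33.3%) were called higher, beside 20.5% of all genes tested. Of the 3 calls, 1, that of LBR, held in all 13 fits, but 0 reached 1.2-fold. In the other direction 0 of the 9 were called by edgeR or DESeq2, and 1 was lower at an unadjusted edgeR p under 0.05. DHDDS, of dolichol synthesis, had a log2 fold change of 0.21, which without siFBXL6 replicate 3 was 0.16 with an adjusted p of 0.0576 (range over the alternatives 0.000735 to 0.0576). LBR, a sterol reductase of the nuclear envelope, rose by 0.17.

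Of 10 genes of sterol storage, transport and LXR, 3 (30%) were called higher and 3 (30%) lower. The shares over all genes tested were 20.5% and 19.8%. On this list all calls held in the 13 fits, with 3 higher and 2 lower at 1.2-fold. NPC1, which moves cholesterol out of lysosomes, was at 30.5, 29.9 and 29.3 CPM in siNC and at 49.2, 49.8 and 49.8 CPM in siFBXL6. That rise of 0.73 ± 0.039 (SE) on the log2 scale (adjusted p = 7.83e-17) was the largest among the members and the genes of these lists. NR1H2, which encodes LXR beta, rose by 0.42, and NR1H3, which encodes LXR alpha, fell by 0.28 on the log2 scale. ABCG1, a sterol exporter induced by LXR, was at 15.6, 16.5 and 16.4 CPM in siNC and at 13, 12.5 and 12.6 CPM in siFBXL6. It fell by 0.35 on the log2 scale. LPCAT3, another gene induced by LXR, was not called, with a log2 fold change of -0.10 (95% interval -0.23 to 0.04) and groups that overlapped.

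Of 17 other genes of fatty acid synthesis and activation that passed the filter, 6 (35.3%) were called higher and 3 (17.6%) lower. The shares over all genes tested were 20.5% and 19.8%. Of the 6 higher and 3 lower calls, 6 and 2 held in all 13 fits and 4 and 2 reached 1.2-fold. THRSP did not pass. ELOVL1, an elongase of very long chains, rose by 0.46 and ACSL5, which activates fatty acids with coenzyme A, by 0.41 on the log2 scale. MLXIPL, which encodes the glucose-sensing factor ChREBP, was low at 1.61, 1.96 and 1.69 CPM in siNC and 1.01, 1.09 and 1.26 CPM in siFBXL6, and fell by 0.64 on the log2 scale (adjusted p = 0.00355). ACACB, the mitochondrial acetyl-CoA carboxylase, was at 2.98 CPM in siNC and 2.01 CPM in siFBXL6, and fell by 0.57 on the log2 scale. SCD5, a further stearoyl-CoA desaturase, was at 9.69 ± 1.1 CPM in siNC and 9.65 ± 0.487 CPM in siFBXL6 (SD, n = 3), and its groups overlapped. Of 7 genes of glycerolipid assembly, 1 (14.3%) was called, beside 40.2% of all genes tested in either direction. It was AGPAT3, an acyltransferase of phosphatidate synthesis, which fell by 0.15 on the log2 scale.

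**Figure D4:**
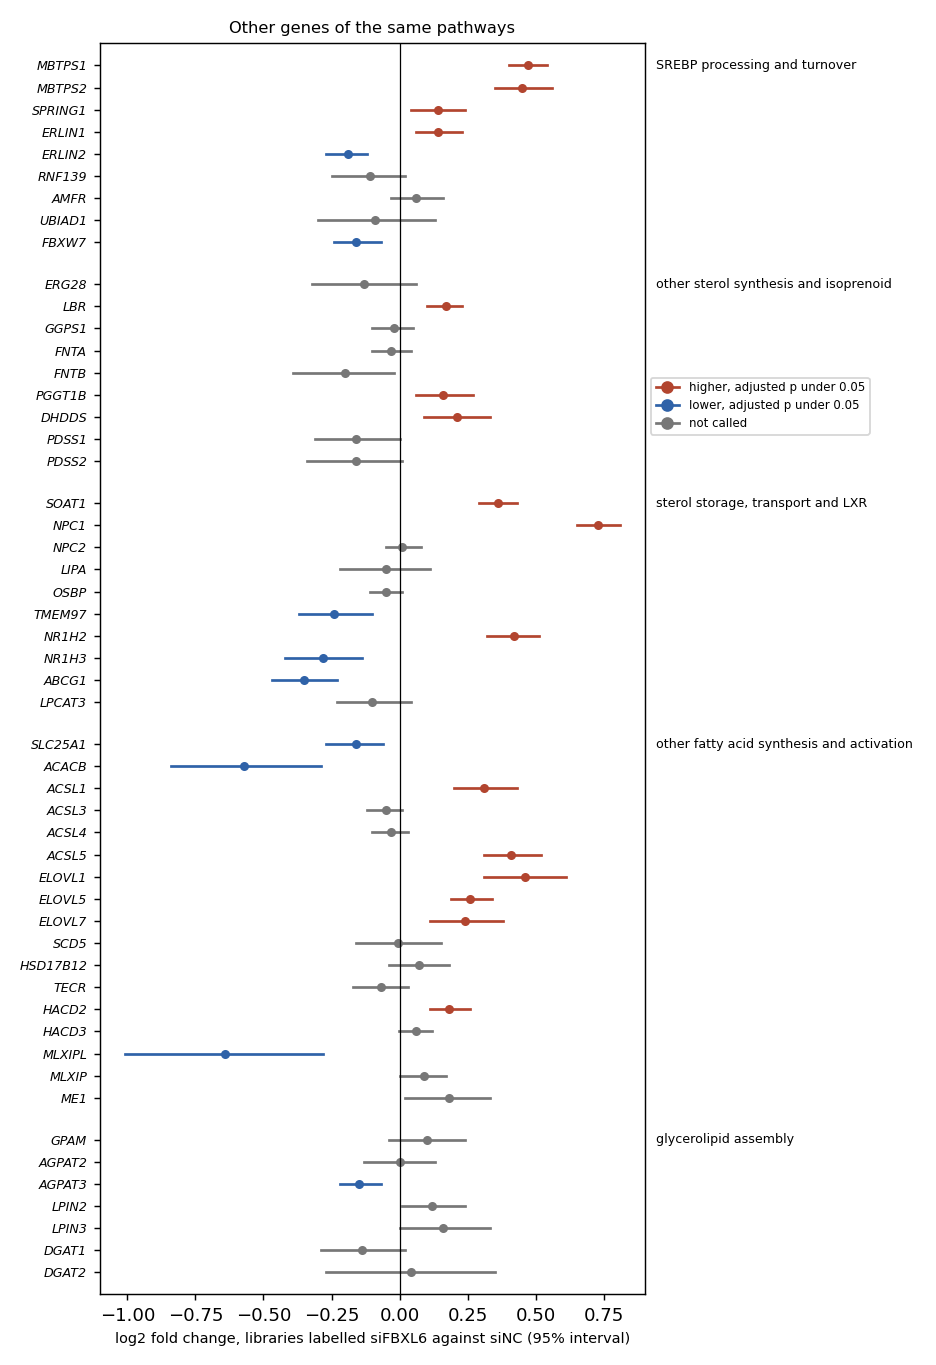
Log2 fold changes of the 52 tested genes of the other lists, libraries labelled siFBXL6 against siNC, by list, with points for the estimate, lines for its 95% interval and colors for the call. NPC1 lies farthest right at 0.73, MBTPS1 and MBTPS2 at 0.47 and 0.45, and MLXIPL farthest left at -0.64.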

How the data were processed

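The authors deposited raw counts per gene from featureCounts for 6 libraries (GRCh38). The submitters' processing notes name fastp 0.23.0, STAR and Subread 1.5.1, whereas the study's methods name Trimmomatic and HISAT2 for trimming and alignment. Whether the counting used the strand is not given in the sources used here. From the counts, genes were filtered with filterByExpr at its defaults (21298 of 56303 passed), TMM factors were computed and edgeR 4.0.16 was run (quasi-likelihood test, group as the only term, R 4.3.3, limma 3.58.1), with Benjamini-Hochberg adjustment over all genes tested; a gene was called at an adjusted p under 0.05. Steps were tested on simulated data. RPKM values are CPM per kilobase of the deposited exon length. The alternatives were DESeq2 1.42.0, RLE or upper-quartile factors, library size alone, other filters, a replicate block, leaving out each library, an adjusted p under 0.01 and at least a 1.2-fold change. Named genes were all members, FBXL6 and, per list of other pathway genes, up to 2 called genes with the highest and 2 with the lowest log2 fold change at a mean of at least 1 CPM; SPRING1 and ERG28 were found under older symbols. A gene of these lists is left out of their counts and is not reported here. Genes that share exons with members were chosen after their values were seen, as were the subtraction of the HMGCS1 partner, ERLIN1, THRSP, SCD5 and LPCAT3. The members and lists were chosen with earlier results of these data known. No 2 libraries of a group agreed within sampling noise (chi-square per degree of freedom 2.85 to 6.24).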

Additional observations from a re-analysis of the deposited data

How the results depend on the processing

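Over 13 alternatives, 432 of 455 values of the 35 members kept their direction and their side of the threshold, 8 lost the call, 11 gained it and 4 changed sign. The changed signs were all of genes that were not called: MVD (-0.15 to 0.03 on leaving out a library, positive without siNC replicate 3), FDPS (-0.0047 to 0.04, negative without siNC replicate 2) and STARD4 (-0.03 to 0.12, negative without siNC replicate 3 and, at -0.01, without siFBXL6 replicate 3). All genes called numbered 8569, and 4661 with at least a 1.2-fold change; leaving out a library gave 7451 to 8298. Sterol members called higher fell from 3 to 1 at 1.2-fold, and sterol members called lower rose from 3 to 5 with upper-quartile factors and 6 with library size alone; the cause was not tested. Leaving out a library gave 2 to 4 sterol members higher and 3 to 4 lower. Fatty acid members called higher numbered 1 at 1.2-fold, since that threshold leaves out ACSS2. Fatty acid members called lower numbered 4 there, without FASN, and 5 in each of the other alternatives, and both LXR-induced genes were lower in each. FBXL6 was called in none. Of the 15 other genes that the rule names, 1 of 195 values lost the call, that of DHDDS without siFBXL6 replicate 3. With the number as a replicate block, 8408 genes were called, and the member counts were unchanged. No pairing by number was seen: deviations of same-numbered libraries correlated at -0.0263, 0.00319 and 0.016, and not every library correlated best with its own number. These correlations cannot decide whether same-numbered libraries were handled together, since genes with few counts weigh as much in them as others. At this depth TM7SF2, with 68 to 132 counts a library, is the least precise member.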
